A study of Mus musculus with 16 samples.

Results

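Osteoclast-like cells were sought among single cells from bone marrow stromal cell (BMSC) cultures by the transcripts of *Acp5*, *Ctsk* and *Mmp9*. A cell belonged to the population when each of the 3 genes had at least 1 unique molecular identifier (UMI, a count of 1 captured transcript), when their sum reached 50 per 10,000 gene UMIs of the cell, and when *Col1a1*, *Col1a2*, *Sparc*, *Tagln* and *Tpm2*, which mark stromal cells, summed to under 25 per 10,000. Of 15847 cells with at least 500 genes and under 20% mitochondrial UMIs, 78 met this rule, and 61 of the 78 came from WT mice. The rule used measured values, so the levels of these genes describe how the cells were chosen and carry no test. The cells of comparison were the 14169 other macrophage-marked cells, which are not osteoclast-like and in which *Lyz2*, *Tyrobp*, *Fcer1g*, *C1qa*, *C1qb* and *C1qc* summed to at least 80 per 10,000.

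Osteoclasts are the cells that resorb bone. They arise when myeloid precursors receive macrophage colony-stimulating factor through CSF1R and RANKL through RANK (*Tnfrsf11a*), with adaptor signals from TYROBP and FCER1G, and NFATC1 then turns on the genes for cell fusion, acid secretion and matrix degradation. In BMSC cultures, osteoblast lineage cells are a source of RANKL and of macrophage colony-stimulating factor for the myeloid cells that adhere with them.

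The cultures came from the marrow of 12-week-old C57BL/6J mice and were kept for 21 days in osteogenic medium with 10 mM beta-glycerophosphate and 50 µg/ml ascorbic acid. The genotypes were WT, Fgf23cKO, in which a Cre recombinase under the *Dmp1* promoter removes the floxed first exon of *Fgf23* in osteocytes and mature osteoblasts, Dmp1KO, which lacks *Dmp1* in all cells, and Dmp1KO/Fgf23cKO, which carries both. By the study's methods, the WT and Dmp1KO mice were littermates of the others that carried the floxed *Fgf23* alleles without Cre. For each genotype, 3 cultures were given oligonucleotide tags, sorted for living cells, passed through a 40 µm mesh and pooled into 1 droplet reaction. A difference between genotypes therefore cannot be told apart from one between reactions, and cells too large for the mesh were not collected. Samples numbered 4 were read as untagged cells of the same pools and are given as values only, and the counts of the first Dmp1KO culture were not analysed here.

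The 15 samples with counts held between 3560752 and 72482185 gene UMIs. *Dmp1* was lowest in the cultures that lack it, with 27.3 to 108 CPM (counts scaled to a common library total) in the tagged WT cultures, 7.38 to 65.5 in Fgf23cKO, 0 and 0.0478 in Dmp1KO, and 1.33 to 2.18 in Dmp1KO/Fgf23cKO. *Fgf23* had 0 to 8 UMIs per sample, too few to check its deletion, and the deleted first exon lies away from the 3′ end that the assay reads. No barcode was shared between samples of 1 genotype, and no barcode was repeated among the osteoclast-like cells.

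Osteoclast-like cells made up a mean of 1.27% of the cells in WT cultures and were rarer in the cultures of the other genotypes. In the tagged WT cultures, 16 of 1038, 16 of 1893 and 24 of 1689 cells were osteoclast-like, or 1.54% (exact 95% interval 0.884 to 2.49), 0.845% (0.484 to 1.37) and 1.42% (0.913 to 2.11). In Fgf23cKO, 2 of 425, 3 of 388 and 1 of 526 cells gave 0.471% (0.0570 to 1.69), 0.773% (0.160 to 2.24) and 0.190% (0.00481 to 1.05). The Dmp1KO cultures held 0 of 2718 cells, which allows a share of up to 0.110% by a limit of 3 counts and 0.136% by the exact interval, and 1 of 2594 cells, or 0.0386% (9.8e-04 to 0.215). Each WT culture lay above each culture of the other genotypes, and both Dmp1KO cultures lay below all others. The gap between WT and Fgf23cKO was narrow, since the second WT culture, at 0.845%, fell below the second Fgf23cKO culture with macrophage-marked cells as the denominator (0.885% and 0.890%) and at a threshold of 25 per 10,000 (1.16% and 1.29%), where the exact permutation p was 0.200. In Dmp1KO/Fgf23cKO, 2 of 846, 2 of 752 and 1 of 470 cells gave 0.236% (0.0286 to 0.851), 0.266% (0.0322 to 0.957) and 0.213% (0.00539 to 1.18). The untagged samples held 1.04% (5 of 480), 0.389% (4 of 1028), 0% (0 of 720, which allows up to 0.417% by 3 counts and 0.511% by the exact interval) and 0.357% (1 of 280) in the same order of genotypes, as the plot of the share by sample shows. The intervals cover counting error only.

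**Figure D1:**
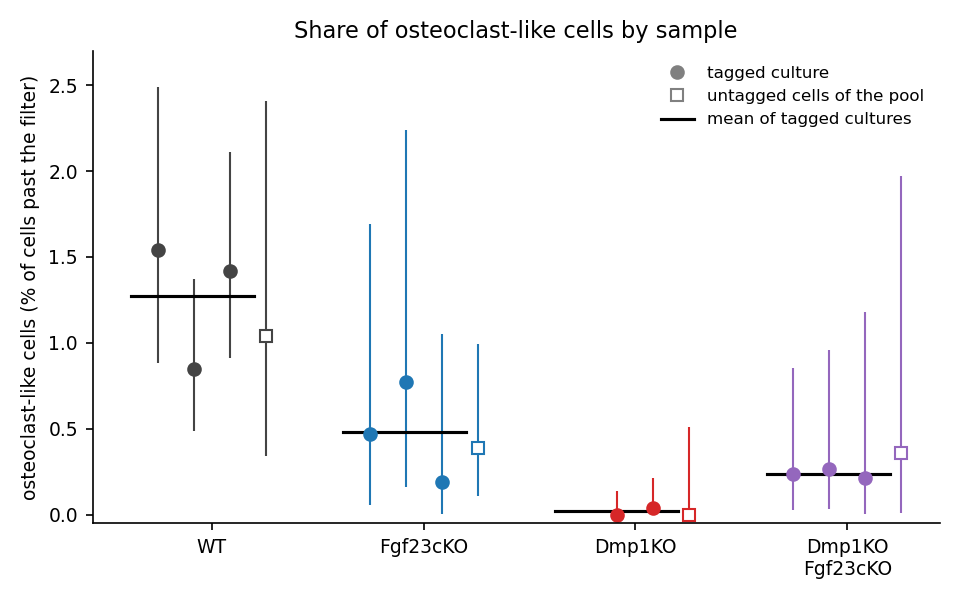
Share of osteoclast-like cells among all cells past the filter (y axis, percent) in each sample, grouped by genotype on the x axis; filled points are tagged cultures, open squares untagged cells of the same pool, vertical lines exact 95% intervals and horizontal bars the mean of the tagged cultures. The 3 WT cultures sit between 0.845 and 1.54%, above every other tagged culture.

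The mean share was 1.27 ± 0.372% in WT (SD, n = 3), 0.478 ± 0.292% in Fgf23cKO (n = 3), 0.0193 ± 0.0273% in Dmp1KO (n = 2) and 0.238 ± 0.0267% in Dmp1KO/Fgf23cKO (n = 3). Against WT, the share differed by -0.791 percentage points in Fgf23cKO, by -1.25 in Dmp1KO and by -1.03 in Dmp1KO/Fgf23cKO, and Dmp1KO/Fgf23cKO exceeded Dmp1KO by 0.219. Each of these 4 comparisons gave p = 0.10 by an exact two-sided permutation test, the smallest value so few cultures allow, and 0.120 after Benjamini-Hochberg adjustment over 6 comparisons. The other two were stratified by the second gene. Cultures without *Dmp1* lay 0.745 points lower than those with it (difference -0.745, exact permutation p = 0.020, adjusted p = 0.120), and cultures with *Fgf23* deleted differed from those without by -0.286 points (exact permutation p = 0.240, adjusted p = 0.240). None of the 6 comparisons passed the adjusted threshold of 0.1. The comparisons with WT share the WT cultures. Raising the threshold of the rule from 50 to 100 per 10,000 moved the difference to -0.831 points for Dmp1KO and to -0.651 for Dmp1KO/Fgf23cKO, and that for *Dmp1* deletion to -0.434 (exact permutation p = 0.0750).

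Depth differed between genotypes and could bear on a rule that asks for 3 genes at once. WT cells were the shallowest, with a median of 7392.0 to 7926.0 UMIs per culture, compared with 20936 and 22910 in Dmp1KO and 34544 to 39744 in Fgf23cKO. After each cell was thinned to 2000 UMIs, with shallower cells left out (67, 77 and 86 in the WT cultures and 3 to 35 in each other tagged culture), the mean share was 1.02% in WT, 0.341% in Fgf23cKO, 0.0195% in Dmp1KO and 0.241% in Dmp1KO/Fgf23cKO, with the means in the same order as without thinning. The cultures of WT and Fgf23cKO then overlapped, with the second WT culture at 0.716% and the second Fgf23cKO culture at 0.787% (exact permutation p = 0.200), and the difference for *Dmp1* deletion was -0.553 points (exact permutation p = 0.0750).

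The edge of the rule was not sharp. The osteoclast-like cells nearest to the threshold had 50.8, 53.3 and 55.3 UMIs of the 3 genes per 10,000, and the nearest cells below it had 49.3, 48.2 and 46.8. Of 138 cells at or above 50 per 10,000, 60 were kept out because a gene had no UMI or stromal genes were high. Cells that reached the threshold without any *Mmp9* UMI numbered 26 in WT, 6 in Fgf23cKO, 22 in Dmp1KO and 1 in Dmp1KO/Fgf23cKO, and 12, 3, 15 and 0 of these had at most 1 *Acp5* UMI, so that their sum rested on *Ctsk*. A further 67 cells had all 3 genes but lay below the threshold, 18 of them at 25 or more.

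The osteoclast-like cells were deeply sequenced, with a median of 22848 UMIs per cell and a range of 837 to 158888. In the tagged WT cultures their median was 20895 UMIs, compared with 7404.0 in the other macrophage-marked cells and 15154 in stromal cells. They were 1.21% of the WT cells and held 2.99% of the WT UMIs. Cells of 1 culture that share a droplet carry the same tag and were not removed, and whether any of the osteoclast-like cells were such multiplets was not tested.

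Transcription in WT osteoclast-like cells was compared with the other macrophage-marked cells of the same cultures, because only the 3 tagged WT cultures held at least 5 members. UMIs were summed per culture and class (56 osteoclast-like and 4220 other cells, 1251946 and 35126604 UMIs) and fitted with edgeR with the culture as a block. Of 11635 genes tested, 2325 were higher (20%) and 2968 were lower (25.5%) at an adjusted p under 0.1, and the median log2 fold change over all genes tested was -0.12. The 14 genes of the rule were kept out of the test. Genes that vary with the 3 chosen genes among the cells are not independent of the choice, and the comparison cells had themselves been chosen for abundant macrophage transcripts, so the counts describe how the classes differ. With 45.5% of genes called, a list is read here against that background, and no list was tested as a set.

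The genes that chose the cells stood at 3140, 4790 and 2960 CPM for *Acp5* (tartrate-resistant acid phosphatase) in the osteoclast-like cells of WT cultures 1, 2 and 3, and at 14.5, 14.4 and 23.4 in the other macrophage-marked cells. *Ctsk*, the collagen-degrading cathepsin K, stood at 8430, 8800 and 8390 compared with 52.7, 69.7 and 93.2. *Mmp9*, a gelatinase, stood at 2320, 2020 and 1490 compared with 3.59, 2.62 and 7.72. All of these are normalized CPM of summed UMIs, and no test was made on them.

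The 10 further osteoclast markers that the rule did not use were all higher in the osteoclast-like cells, as the plot of marker genes shows. *Nfatc1*, the master transcription factor of osteoclast differentiation, stood at 447, 497 and 535 CPM compared with 41.5, 37.5 and 43.2, a log2 fold change of 3.60 ± 0.12 (SE, adjusted p = 1.8e-14 in edgeR). *Atp6v0d2*, a subunit of the vacuolar proton pump that is needed for fusion, stood at 994, 830 and 904 compared with 129, 115 and 123 (2.89 ± 0.10, adjusted p = 1.8e-14 in edgeR). *Dcstamp*, a membrane protein of fusing precursors, stood at 158, 176 and 227 compared with 1.20, 1.48 and 5.2. The classes did not overlap for any of these genes, and the same held for *Ocstamp*, *Oscar*, *Car2*, *Itgb3*, *Siglec15*, *Ckb* and *Calcr*. Over all 5293 genes called, 5029 did not overlap, so this does not set the markers apart. Among single cells, 100% of the 56 osteoclast-like cells had an *Atp6v0d2* UMI, 71.4% a *Dcstamp* UMI, 69.6% an *Ocstamp* UMI and 44.6% an *Oscar* UMI. The shares in stromal cells, which should lack these genes, were 6.79%, 0% (exact 95% interval up to 1.66), 0.452% and 2.26% at a median of 15154 UMIs, and those in the other macrophage-marked cells were 25.8%, 0.995%, 0.261% and 0.118%. With cells thinned to 2000 UMIs, the osteoclast-like shares were 70.9%, 25.5%, 23.6% and 12.7%. Thinned in the same way, the other macrophage-marked cells had 14.6%, 0.273%, 0% and 0.0248%, and stromal cells 1.52%, 0%, 0% and 0%.

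*Calcr*, the calcitonin receptor of mature osteoclasts, was the exception in its spread. It stood at 2.68, 69.2 and 1.88 CPM in the 3 WT cultures, and its 24 UMIs came from 4 of the 56 cells, with 21 UMIs in a single cell. The other macrophage-marked cells had 0 *Calcr* UMIs, so the level was at least 235-fold higher against a floor of 3 counts over these cells. That bound rested mostly on the second WT culture.

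**Figure D2:**
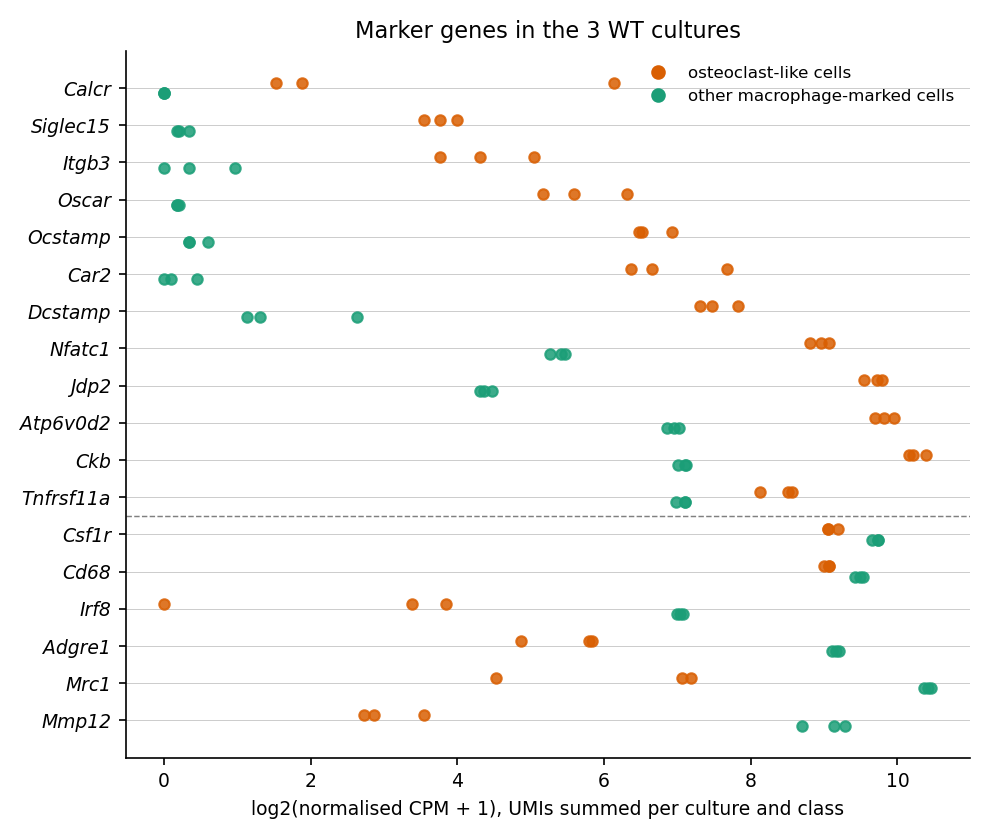
Levels of marker genes in the 3 WT cultures (x axis, log2 of normalized CPM + 1 of UMIs summed per culture and class); orange points are osteoclast-like cells and green points the other macrophage-marked cells, 1 point per culture, and a dashed line separates osteoclast genes from macrophage genes. The classes do not overlap for any gene shown, with *Jdp2* at 745 to 883 CPM in the osteoclast-like cells and 18.8 to 21.3 CPM in the others. The same holds for 5029 of all 5293 genes called.

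Receptors and signaling genes moved in both directions. Of 18 genes, 8 were higher and 8 were lower, with a median log2 fold change of 0.06. *Tnfrsf11a*, which encodes the RANKL receptor RANK, stood at 279, 377 and 363 CPM compared with 137, 137 and 125 (1.36 ± 0.13, adjusted p = 2.7e-08 in edgeR). The immunoreceptor *Oscar*, which pairs with the FCER1G adaptor, stood at 34.8, 78.6 and 47.0 CPM compared with 0.133, 0.134 and 0.148, a 344-fold difference. *Siglec15*, a sialic acid receptor that pairs with TYROBP, was 67.2-fold higher, *Itgb3*, the beta chain of the vitronectin receptor, 46.8-fold and the kinase *Src* 20.3-fold. *Trem2*, another TYROBP partner, was lower, at 179, 198 and 220 CPM compared with 908, 940 and 958 (-2.23 ± 0.11, adjusted p = 1.8e-12 in edgeR). The kinases *Syk* and *Btk* did not pass the test (adjusted p = 0.434 and 0.114 in edgeR). *Csf1r*, the receptor of macrophage colony-stimulating factor, stood at 581, 528 and 530 CPM compared with 853, 851 and 801 (-0.61 ± 0.09, adjusted p = 1.5e-05 in edgeR), so it was lower but far from lost.

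The adaptor genes *Tyrobp* and *Fcer1g* were among the 6 that chose the comparison cells and are given as levels only. Over all 61 WT osteoclast-like cells, *Tyrobp* stood at 1600 CPM compared with 2051 in the other macrophage-marked cells, and *Fcer1g* at 874 compared with 2599. *Lyz2* (lysozyme) stood at 1985 compared with 22389, and *C1qa*, a complement component, at 165 compared with 2257. The 6 genes together had a median of 31.1 per 10,000 in the osteoclast-like cells of the tagged WT cultures, with a range of 12.3 to 209, and 15 of all 78 cells reached the 80 per 10,000 of the comparison cells.

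Regulators of osteoclast differentiation divided by gene. Of 16, 7 were higher, 4 were lower and 5 did not pass the test, and the median log2 fold change was 0.33. With DESeq2, 7 were higher and 1 was lower, and at a threshold of 25 per 10,000, 8 and 2. *Jdp2*, an AP-1 family factor needed for osteoclast formation, stood at 846, 745 and 883 CPM compared with 21.3, 18.8 and 19.5 and had the smallest adjusted p of the list (5.38 ± 0.12, adjusted p = 4.7e-17 in edgeR). *Ppargc1b*, a coactivator of mitochondrial biogenesis, was 15.3-fold higher, the AP-1 factor *Fosl2* 8.52-fold and *Prdm1*, the repressor Blimp1, 5.63-fold. *Mitf*, which acts with PU.1 on osteoclast genes, was slightly lower, at 321, 311 and 299 CPM compared with 395, 383 and 384, a call that held neither with DESeq2 nor without WT culture 3, and its relatives *Tfec* and *Tfeb* did not pass the test. *Id2*, an inhibitor of helix-loop-helix factors, stood at 110, 47.2 and 54.5 CPM compared with 420, 401 and 392 (-2.54 ± 0.18, adjusted p = 3.2e-10 in edgeR).

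Genes known as repressors of osteoclast differentiation were lower. *Irf8*, an interferon regulatory factor that restrains *Nfatc1*, stood at 13.4, 0 and 9.39 CPM compared with 130, 134 and 126 (-3.98 ± 0.33, adjusted p = 4.1e-09 in edgeR). *Id1* was at 0.163 and *Bcl6* at 0.271 of the level in the other cells. In no culture did *Irf8* reach the level of the comparison cells.

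Of 12 fusion genes, 6 were higher and 4 lower, with a median log2 fold change of 0.30. *Ocstamp*, a partner of *Dcstamp*, stood at 121, 88.1 and 90.2 CPM compared with 0.266, 0.269 and 0.520 (7.99 ± 0.46, adjusted p = 2.5e-11 in edgeR). *Myo10*, a motor protein of filopodia, and *Sh3pxd2a*, a scaffold of podosomes, were higher by 6.34-fold and 2.48-fold. The 4 lower genes were *Cd47* at 0.483, *Sirpa* at 0.387, *Adam8* at 0.281 and the tetraspanin *Cd81* at 0.0670 of the level in the comparison cells. *Cd44* was 1.34-fold higher. *Cd9* and *Anxa5* did not pass the test.

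Genes of acid secretion were mostly higher, 19 of 24, with 2 lower and a median log2 fold change of 1.34. *Car2*, the carbonic anhydrase that supplies protons, stood at 204, 81.8 and 99.6 CPM compared with 0, 0.0672 and 0.371 (9.26 ± 0.50, adjusted p = 8.4e-12 in edgeR). *Slc9b2*, a sodium-proton exchanger of osteoclasts, stood at 557, 547 and 490 compared with 13.0, 12.2 and 13.5 (5.35 ± 0.13, adjusted p = 2.4e-16 in edgeR), and *Slc4a2*, the bicarbonate exchanger, was 7.60-fold higher. All 8 cytosolic V1 subunits of the proton pump that were listed were higher, by 1.97-fold for *Atp6v1f* to 4.57-fold for *Atp6v1b2*.

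The membrane V0 subunits differed by isoform. *Tcirg1*, the a3 isoform that osteoclasts place in the ruffled border, stood at 394, 406 and 340 CPM compared with 198, 205 and 206 (0.90 ± 0.11, adjusted p = 1.9e-06 in edgeR), and *Atp6v0a1*, the a1 isoform, at 24.1, 25.2 and 22.5 compared with 216, 236 and 231 (-3.26 ± 0.20, adjusted p = 4.4e-11 in edgeR). Among the d subunits, *Atp6v0d2* was higher by 7.43-fold and *Atp6v0d1* was at 0.826 of the other cells (-0.28 ± 0.12, adjusted p = 0.0821 in edgeR). The chloride transporter *Clcn7* was 1.32-fold higher (adjusted p = 0.0705 in edgeR). The calls of *Clcn7* and *Atp6v0d1* did not hold with DESeq2. The *Clcn7* subunit *Ostm1*, as well as *Plekhm1* and *Atp6ap1*, did not pass the test. *Atp6v0a1* and *Atp6v0d1* were the only genes of the list that were lower.

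Outside *Ctsk* and *Mmp9*, proteases were mostly lower. Of 18 proteases and inhibitors, 2 were higher and 15 lower, with a median log2 fold change of -2.10. *Mmp14*, a membrane collagenase, stood at 402, 444 and 391 CPM compared with 126, 126 and 125 (1.71 ± 0.11, adjusted p = 1.9e-10 in edgeR), and the cathepsin inhibitor *Cstb* was 1.84-fold higher. *Timp1* and *Timp3* were no longer lower with comparison cells under the stromal limit. The lysosomal cathepsins *Ctsb*, *Ctsd*, *Ctss* and *Ctsc* were at 0.196, 0.197, 0.173 and 0.0722 of the level in the other macrophage-marked cells. *Mmp12*, the macrophage elastase, stood at 10.7, 6.29 and 5.64 CPM compared with 622, 414 and 560 (-6.19 ± 0.22, adjusted p = 2.5e-14 in edgeR). *Cst3*, which encodes cystatin C, did not pass the test (adjusted p = 0.203 in edgeR).

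Genes of energy metabolism were higher in all 20 cases, with a median log2 fold change of 1.67. *Ckb*, the brain-type creatine kinase, stood at 1180, 1340 and 1140 CPM compared with 128, 136 and 138 (3.18 ± 0.10, adjusted p = 4.4e-15 in edgeR). *Cycs*, cytochrome c, was 7.12-fold and *Idh3a*, of the citrate cycle, 7.70-fold higher, and subunits of the respiratory complexes and the ATP synthase rose by 2.29-fold for *Cox4i1* to 3.72-fold for *Atp5b*. *Tfrc*, the transferrin receptor, was 3.30-fold higher. The mitochondrially encoded share of UMIs had a median of 3.28% in these cells and 2.69% in the other macrophage-marked cells of WT.

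All 15 ribosomal protein genes listed were higher as well, with a median log2 fold change of 1.13. Ribosomal protein transcripts made up a median of 21.5% of the UMIs of WT osteoclast-like cells and 11.2% of those of the other macrophage-marked cells. The same list had 15 of 15 higher with both classes limited to cells of at least 10000 UMIs.

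Macrophage genes were lower in 19 of 20 cases, with a median log2 fold change of -3.32, and of -3.24 with the gene at 0 UMIs set to its bound. The comparison cells were chosen by other macrophage genes, and this direction was in part fixed by that choice. *Mrc1*, the mannose receptor, stood at 145, 22 and 133 CPM compared with 1360, 1410 and 1310. *Adgre1* (F4/80) was at 0.0838 and *Apoe* at 0.108 of the level in the other cells, and *Ccr2*, the monocyte chemokine receptor, had 0 UMIs, at least 5.61-fold lower. *Lpl*, the lipoprotein lipase, was the 1 gene that was higher (1.49-fold, not past the test among cells of at least 10000 UMIs), and *Cd68* stayed at 0.741. Antigen presentation genes were lower for 7 of 9 tested, with a median of -2.06, and *H2-Aa* had 0 UMIs in the osteoclast-like cells.

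Factors through which osteoclasts act on osteoblasts were tested for 9 of 14 genes, of which 2 were higher and 6 lower (median -1.70). *Pdgfb*, a growth factor of preosteoclasts, stood at 163, 88.1 and 128 CPM compared with 47.5, 46.0 and 41.8 (1.49 ± 0.18, adjusted p = 1.4e-06 in edgeR), and the semaphorin *Sema4d* was 2.7-fold higher. *Igf1* stood at 145, 22 and 130 CPM compared with 1380, 1400 and 1370, and *Spp1* (osteopontin) at 514, 403 and 507 compared with 1440, 1480 and 1700.

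Among markers of other cells, 8 of 9 osteoblast and 9 of 10 stromal genes tested were lower, with medians of -2.43 and -3.38 (-2.79 at the bounds). The rule had limited stromal genes in the osteoclast-like cells alone, and with comparison cells held to the same limit, 1 of the 8 osteoblast genes and 3 of the 9 stromal genes still passed, while 3 and 2 of them were too low to be tested. The stromal list summed to 88.0 CPM in the osteoclast-like cells and 529 CPM in the others, with *Igfbp4* the most abundant. Of 10 neutrophil genes 3 were tested, and 6 had 0 UMIs, *S100a9* and *Elane* among them. These 2 had 0 UMIs in the comparison cells as well, so they do not set the classes apart. *Cxcr2*, a chemokine receptor that is also a neutrophil marker, was higher with 11 UMIs. Lymphocyte, erythroid, mast cell, adipocyte and endothelial markers were at or near 0 apart from *Pf4*, at 75, 25.2 and 78.9 CPM compared with 740, 739 and 762 in the other cells. The plot of gene lists shows every list tested.

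The 10 genes with the highest fitted fold changes that kept their direction in every culture were *Calcr*, *4833415N18Rik*, *Steap4*, *Kbtbd11*, *Car2*, *Scin*, *Pate4*, *Nyap2*, *Rufy4* and *Mt3*. *Mt3*, a metallothionein known from brain, stood at 1190, 1150 and 1620 CPM compared with 0.399, 0.672 and 10.2 (8.62 ± 0.37, adjusted p = 3.9e-13 in edgeR) and was found in 78.6% of the osteoclast-like cells. *Kbtbd11*, a regulator of osteoclast formation, stood at 110, 107 and 90.2 CPM, with 3 UMIs in all the other macrophage-marked cells, a ratio of 1203 with a counting interval of 402 to 5913. *Scin*, which severs actin filaments, stood at 150, 78.6 and 75.1 compared with 0, 0 and 0.371. *Steap4* is a metalloreductase, and its ratio of 1672 rested on 1 UMI in the comparison cells (counting interval 288 to 67202). *4833415N18Rik* and *Pate4* had no UMI there and were at least 264-fold and 147-fold higher against the floor.

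Each of the 10 genes with the lowest fitted fold changes had 0 UMIs in the osteoclast-like cells, so its fold is known only as a bound and the fitted order is no ranking by size. *Mmp12*, with 9 UMIs and 0.0137 of the level in the other cells, lay lower than any of these bounds reaches. *Iqgap2*, a scaffold of the cytoskeleton, stood at 63.4, 68.6 and 67.6 CPM in the other macrophage-marked cells and was at least 27.4-fold lower. *Stap1* and the potassium channel *Kcnj10* were at least 14.9-fold and 14.4-fold lower. For *Sash3*, *Csmd1*, *Oasl2*, *Fas*, *Cxcl1*, *Clec10a* and *Ptgs1* the bounds lay between 7.47-fold and 11.2-fold, and the call of *Csmd1* did not hold with the untagged samples added. In all, 261 of the genes called lower had no UMI in the 56 cells.

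Promoter sequence was available for 12 of 22 osteoclast genes looked for (RefSeq, GRCm38.p6, the 250 bases before to 50 bases after a start, 17 windows). The promoter of *Ctsk* (chr3:95498960-95499259, plus strand) is shown because the gene chose the cells, that of *Oscar* (chr7:3616108-3616407, minus strand) because NFATC1 is known to act on it, and that of *Scin* (chr12:40134179-40134478, minus strand) as a gene with a high fold change that holds none of the motifs searched. Capitals mark the NFAT core GGAAA or its reverse complement TTTCC and the AP-1 motif TGANTCA, searched on both strands.
Ctsk: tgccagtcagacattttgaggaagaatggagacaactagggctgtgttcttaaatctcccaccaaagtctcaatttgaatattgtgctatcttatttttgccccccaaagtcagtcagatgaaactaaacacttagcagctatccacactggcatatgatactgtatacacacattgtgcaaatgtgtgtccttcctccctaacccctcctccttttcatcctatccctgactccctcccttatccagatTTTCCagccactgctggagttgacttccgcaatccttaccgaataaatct
Oscar: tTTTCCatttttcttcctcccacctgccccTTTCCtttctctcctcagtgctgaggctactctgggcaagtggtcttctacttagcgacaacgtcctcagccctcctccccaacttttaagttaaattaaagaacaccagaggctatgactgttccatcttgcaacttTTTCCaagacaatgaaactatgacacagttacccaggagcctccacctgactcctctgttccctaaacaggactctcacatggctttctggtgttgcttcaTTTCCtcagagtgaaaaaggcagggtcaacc
Scin: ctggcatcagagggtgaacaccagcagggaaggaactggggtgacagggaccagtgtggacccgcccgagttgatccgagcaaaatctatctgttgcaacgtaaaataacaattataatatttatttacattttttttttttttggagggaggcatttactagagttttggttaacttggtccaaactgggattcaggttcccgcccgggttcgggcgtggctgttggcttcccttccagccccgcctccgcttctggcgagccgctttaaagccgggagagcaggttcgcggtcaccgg
*Ctsk* held 1 NFAT core and *Oscar* 4, and none of the 3 windows held the AP-1 motif. GGAAA occurred in 12 of the 17 windows and in 61.3% of 32851 promoters of the same length, and TGANTCA in 1 of 17 and in 7.81%. The E-box CANNTG occurred in 8 windows (72.3% of promoters), the M-box TCANGTG in 3 (14.3%), and the PU.1 motif GAGGAA in 5 (28.3%). Every M-box is also an E-box, and GAGGAA can overlap GGAAA. These matches describe the letters in the windows and carry no test.

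Cells within the population differed in their levels of osteoclast genes and of cell cycle genes. In the tagged WT cultures, 54 osteoclast-like cells had at least 5000 UMIs. Among them, the summed level of *Acp5*, *Ctsk* and *Mmp9* went with that of acid secretion genes (Spearman's rho 0.74 across cells). With cells thinned to 5000 UMIs this rho was 0.67. The summed level of the 3 chosen genes also went with that of fusion genes (0.68) and of mitochondrially encoded genes (0.59). It ran against ribosomal protein genes (-0.55) and cell cycle genes (-0.48). *Jdp2* (-0.07) and *Nfatc1* (0.08) were nearly level along it. These cells share 3 libraries, all values are shares of a cell's UMIs, and the correlations are a description.

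Transcripts of cell division were found in some osteoclast-like cells, as in the other classes. Of the 54 cells, 20 had a UMI of the proliferation marker *Mki67* and 17 of *Top2a*, the topoisomerase of dividing cells, and 12 had both. Over all 56 cells the share with an *Mki67* UMI was 37.5%, compared with 16.8% of the other macrophage-marked cells and 4.98% of stromal cells, which differ in depth. With cells thinned to 2000 UMIs the *Mki67* shares were 9.09%, 8.14% and 2.54%, and those of *Top2a* 14.5%, 7.22% and 4.06%, where the *Mki67* share of osteoclast-like cells rested on 5 of 55 cells. The level of the 3 chosen genes ran against *Mki67* with a rho of -0.65 (-0.50 with thinned cells). All cells of the tagged WT cultures with the 3 genes and low stromal genes were binned along that level. An *Mki67* UMI was found in 75% of 4 cells under 10 per 10,000 and 33.3% of 9 cells at 10 to 25. It was found in 63.6% of 11 cells at 25 to 50 and 77.8% of 18 cells at 50 to 100. It was found in 24.1% of 29 cells at 100 to 200. At 200 or more it was found in 0 of 9 cells, which allows a share of up to 33.3%. Cells with an *Mki67* UMI lay mostly in the lower part of the range, on both sides of the threshold. The summed independent markers had medians of 2.95, 8.65, 9.01, 14.9, 29.1 and 36.1 per 10,000 in the same bins, as the plot of list levels shows. The bins were cut on the level that chose the cells, and their median depth lay between 16098 and 23229 UMIs.

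**Figure D3:**
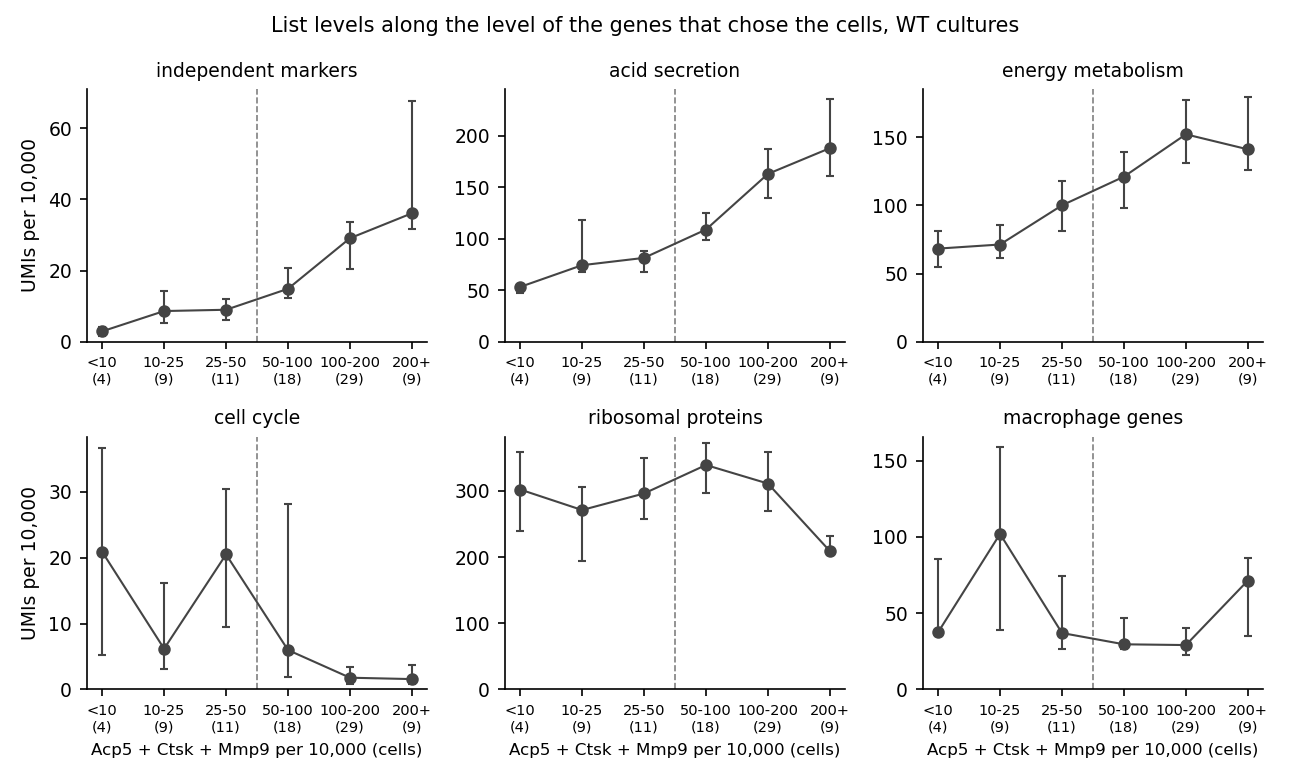
Summed level of 6 gene lists (y axes, UMIs per 10,000, median with quartiles) in WT cells with all 3 chosen genes and low stromal genes. The cells are from the tagged cultures and lie in bins of the summed level of *Acp5*, *Ctsk* and *Mmp9* (x axes, number of cells in brackets). The dashed line is the threshold of 50 per 10,000. Independent markers rise from a median of 2.95 to 36.1, and cell cycle genes fall to 1.57 in the highest bin.

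In the comparison of classes, cell cycle genes depended on where the threshold was set. Of 13 genes, 5 were higher (*Ccna2*, *Ccnb1*, *Birc5*, *Top2a* and *Mcm6*) and 4 lower (*Pcna*, *Ccnd1*, *Ccnd2* and the inhibitor *Cdkn1a*) at 50 per 10,000, while 0 were higher and 7 lower at 100 per 10,000. With both classes limited to cells of at least 10000 UMIs, 2 were higher and 4 lower. *Top2a* had a log2 fold change of 0.80 at the threshold of 50 and -0.84 at 100. *Ccnd1*, a cyclin of early cycle, stood at 32.1, 15.7 and 26.3 CPM compared with 141, 148 and 137 (-2.48 ± 0.22, adjusted p = 1.4e-08 in edgeR).

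Outside WT, 10 osteoclast-like cells were found in Fgf23cKO, 1 in Dmp1KO and 6 in Dmp1KO/Fgf23cKO, too few per culture for a fit between genotypes, so their pooled levels are given as values. By tagged culture, the median mitochondrial share of osteoclast-like cells was 3.82, 8.46 and 12.9% in Fgf23cKO and 8.96, 10.4 and 6.30% in Dmp1KO/Fgf23cKO. In WT it was 3.12, 2.75 and 3.60%. *Jdp2* stood at 725 CPM in Fgf23cKO and 907 in Dmp1KO/Fgf23cKO, compared with 19.6 and 20 in the other macrophage-marked cells of these genotypes. *Nfatc1* stood at 581 and 653 compared with 42.4 and 50.5. Of the 21 acid secretion genes called in WT, 21 had the same direction in Fgf23cKO and 21 in Dmp1KO/Fgf23cKO. So did 20 and 20 of the 20 energy genes and 15 and 15 of the 15 ribosomal protein genes. The counts were 16 and 15 of 17 proteases and inhibitors and 20 and 19 of 20 macrophage genes. They were 9 and 10 of 10 fusion genes and 11 and 10 of 11 differentiation regulators. Over all 5293 genes called in WT, 4938 had the same direction in Fgf23cKO and 4922 in Dmp1KO/Fgf23cKO. *Car2* stood at 35.5 in Fgf23cKO and 331 in Dmp1KO/Fgf23cKO, and 118 in WT.

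The single osteoclast-like cell of Dmp1KO had 32272 UMIs, of which 11.2% were mitochondrial. It held 462 *Acp5*, 525 *Ctsk*, 250 *Mmp9*, 44 *Atp6v0d2*, 25 *Nfatc1*, 11 *Dcstamp*, 5 *Ocstamp* and 5 *Jdp2* UMIs, and none of *Car2* and *Kbtbd11*. Of the 15 ribosomal protein genes, 0 had the direction seen in WT, and 3372 of the 5293 called genes had it. So did 19 of 21 acid secretion genes, 19 of 20 energy genes and 9 of 11 differentiation regulators. Among macrophage genes 16 of 20 had it, and 12 of 17 among proteases and inhibitors. With 1 cell there is no replicate check.

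The part of an osteoclast transcript that lay in the osteoclast-like cells is given by genotype as a description. In the tagged WT cultures, 78.1% of the *Ocstamp* UMIs, 64.5% of the *Dcstamp*, 41.3% of the *Jdp2*, 21.1% of the *Ckb* and 18.4% of the *Atp6v0d2* UMIs came from these cells. In Dmp1KO, with 1 such cell, the shares were 12.2%, 0.391%, 0.439%, 0.0635% and 0.0552%. For some other genes they were nearer to WT, with 86.7% in Dmp1KO and 84.0% in WT for *Scin* and 80% and 81.3% for *Rufy4*. *Scin* and *Rufy4* had only 15 and 10 UMIs in all Dmp1KO cells. Of the 3 genes of the rule, the shares were 77.2% and 88.0% for *Mmp9*, 15.5% and 73.1% for *Acp5* and 1.55% and 68.1% for *Ctsk*. In Dmp1KO 94.1% of the *Atp6v0d2* UMIs lay in the other macrophage-marked cells. In those cells *Atp6v0d2* stood at 587 CPM in Dmp1KO and 123 in WT, *Ckb* at 913 and 138, and *Dcstamp* at 20.8 and 2.88. *Ctsk* stood at 248 and 76.5, *Nyap2* at 4.70 and 0.142, *Itgb3* at 1.84 and 0.484 and *Siglec15* at 0.602 and 0.171. Others were at lower levels there, with *Nfatc1* at 26.3 CPM in Dmp1KO and 41.3 in WT and *Jdp2* at 7.31 and 20. *Tnfrsf11a* stood at 85.2 and 135, *Slc9b2* at 10.1 and 13.2, *Mmp9* at 0.289 and 4.84 and *Ocstamp* at 0.258 and 0.370. The *Ocstamp* levels rested on 33 UMIs in Dmp1KO and 13 in WT. Cells with an *Atp6v0d2* UMI were 80.8% of the other macrophage-marked cells in Dmp1KO and 25.8% in WT, at a median depth of 21094 and 23194 UMIs in the Dmp1KO cultures and 7257.0 to 7681.5 in the WT cultures.

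To test such genes between genotypes, UMIs of all cells past the filter were summed per tagged culture and fitted with edgeR, a comparison added after the data were seen. In sums over whole cultures, fewer cells of a type and less RNA per cell cannot be told apart. In Dmp1KO compared with WT, where 64.5% of 15477 genes were called, *Jdp2* fell, at 9.19 and 11.4 CPM compared with 67.9, 45.5 and 65.4 (-2.53 ± 0.20, adjusted p = 2.6e-06 in edgeR). *Nfatc1* fell as well, at 32.4 and 33.7 CPM compared with 61.0, 53.3 and 65.3 (-0.86 ± 0.11, adjusted p = 9.7e-05 in edgeR). *Ocstamp* fell (-3.36 ± 0.95, adjusted p = 0.0114 in edgeR), as did *Oscar* (-3.85), *Car2* (-3.73), *Kbtbd11* (-4.52), *Scin* (-4.69) and *Mt3* (-4.91). *Car2*, *Kbtbd11*, *Scin* and *Mt3* were among the 10 genes picked for the highest fold changes in the WT osteoclast-like cells. Those cells held 89.1, 72.4, 84.0 and 90.1% of the WT UMIs of these genes, in that order. With 1 such cell in Dmp1KO, their direction was in part fixed by that choice. *Atp6v0d2* rose, at 778 and 654 CPM compared with 151, 134 and 146 (2.31 ± 0.18, adjusted p = 2.4e-06 in edgeR), and *Dcstamp* (1.57 ± 0.36, adjusted p = 0.00383 in edgeR) and *Ckb* (2.73 ± 0.13, adjusted p = 1.9e-07 in edgeR) rose with it. In the macrophage-marked cells alone, with the osteoclast-like cells removed, the differences were 2.52 for *Atp6v0d2*, 3.15 for *Dcstamp*, 3.02 for *Ckb*, -1.18 for *Jdp2* and -0.37 for *Nfatc1*. Osteoclast genes thus went in opposite directions in Dmp1KO, as the plot of whole-culture levels shows.

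In Dmp1KO/Fgf23cKO compared with Dmp1KO, where 62.7% of genes were called, *Jdp2* was higher (1.46 ± 0.19, adjusted p = 1.2e-04 in edgeR), and *Atp6v0d2* (-2.40 ± 0.18), *Dcstamp* (-2.98 ± 0.37) and *Ckb* (-2.18 ± 0.13) were lower. Compared with WT, where 51.7% were called, *Jdp2* was lower in Dmp1KO/Fgf23cKO (-1.07 ± 0.16, adjusted p = 4.9e-04 in edgeR), and *Atp6v0d2* did not pass the test, at 133, 146 and 127 CPM. In Fgf23cKO compared with WT, where 45.1% were called, *Jdp2* was lower (-0.77 ± 0.16, adjusted p = 0.00444 in edgeR), *Atp6v0d2* did not pass the test (adjusted p = 0.612 in edgeR), and *Mt3* was lower (-2.39 ± 0.65, adjusted p = 0.0160 in edgeR). *Mt3* had been picked for its fold change in the WT osteoclast-like cells. With the osteoclast-like cells removed and the macrophage-marked cells alone, the *Jdp2* difference from WT was -0.04 in Fgf23cKO (adjusted p = 0.755 in edgeR) and -0.07 in Dmp1KO/Fgf23cKO (adjusted p = 0.551 in edgeR). That setting also leaves out stromal cells and cells of no class. Of 2475 *Jdp2* UMIs in WT, these held 121 and 628, and the osteoclast-like cells 1023. These comparisons share cultures and are given side by side.

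Ligands and receptors of the pathway were measured in the same sums. *Csf1*, which encodes macrophage colony-stimulating factor, stood at 30.9, 12.6 and 22.5 CPM in WT and rose in Fgf23cKO (92.0, 56.6 and 39.0, adjusted p = 0.00482 in edgeR), Dmp1KO (48.8 and 46.7, adjusted p = 0.0174 in edgeR) and Dmp1KO/Fgf23cKO (61.1, 70.3 and 59.2, adjusted p = 0.00343 in edgeR). Stromal cells were 7.71, 2.48 and 5.57% of the cells in WT, 9.65, 10.3 and 8.75% in Fgf23cKO, 2.13 and 2.97% in Dmp1KO and 7.92, 13.4 and 12.1% in Dmp1KO/Fgf23cKO, so their share was higher along with *Csf1* where *Fgf23* was deleted. In macrophage-marked cells alone, without the osteoclast-like cells, the *Csf1* difference from WT was 0.28 in Fgf23cKO (adjusted p = 0.595 in edgeR), 2.22 in Dmp1KO (adjusted p = 1.3e-04 in edgeR) and 0.87 in Dmp1KO/Fgf23cKO (adjusted p = 0.0595 in edgeR) on the log2 scale. *Tnfsf11*, which encodes RANKL, stood between 0 and 3.70 CPM in every culture, with adjusted p of 0.235, 0.125 and 0.622 in edgeR for the comparisons with WT. It was higher in Dmp1KO/Fgf23cKO (0.215, 1.80 and 0.385 CPM) than in Dmp1KO (0.0172 and 0.0566 CPM). That log2 difference was 4.33 ± 1.66 (adjusted p = 0.0464 in edgeR). The decoy receptor of RANKL, *Tnfrsf11b*, stood between 0.362 and 5.07 CPM. In the same comparison, where 62.7% of genes were called, it was higher by 1.94 ± 0.83 (adjusted p = 0.0689 in edgeR). *Tnfrsf11a* was lower in Dmp1KO, at 99.3 and 100 CPM compared with 124, 144 and 127 (-0.40, adjusted p = 0.00558 in edgeR), and did not pass the test in Fgf23cKO (adjusted p = 0.958 in edgeR). The repressor *Irf8* was higher in Dmp1KO, by 0.60 on the log2 scale (adjusted p = 1.3e-04 in edgeR).

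**Figure D4:**
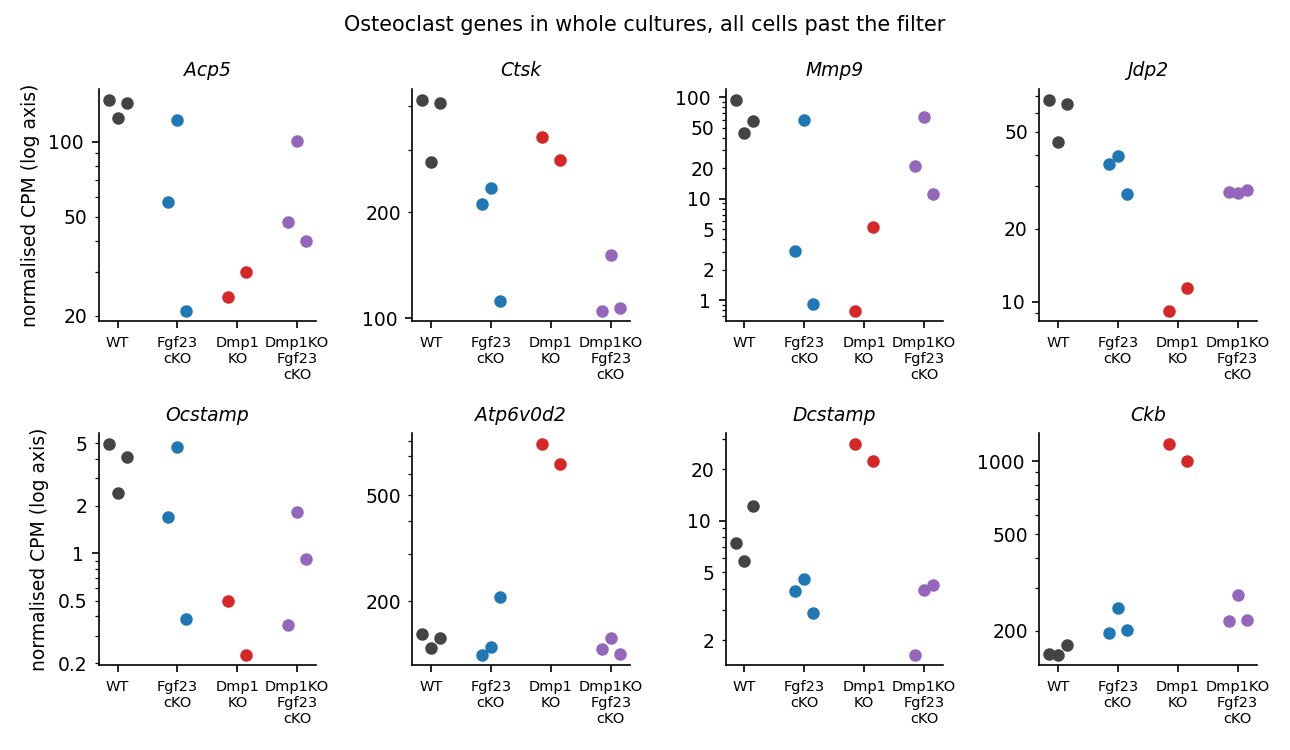
Levels of 8 osteoclast genes in whole tagged cultures (y axes, normalized CPM on log axes) by genotype, 1 point per culture. *Jdp2* is lowest and *Atp6v0d2*, *Dcstamp* and *Ckb* are highest in the 2 Dmp1KO cultures, where *Atp6v0d2* stood at 778 and 654 CPM.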

How the data were processed

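The authors sequenced droplet libraries of tagged BMSC cultures, processed them with Cell Ranger 7.0.1 (build mm10 per the labels), removed multiplets between tags and deposited raw UMI counts per gene and cell for 32285 genes and 12 tags, without normalization. The members, gene lists and tests were chosen with earlier results of these data known. Cells passed at 500 genes and under 20% mitochondrial UMIs, and no doublet caller was run. The study counts 3 mice and 3 individual cultures per genotype, so each tagged culture was read as 1 mouse. UMIs were summed per culture and class and tested with edgeR 4.0.16 in R 4.3.3 (quasi-likelihood test, TMM, filterByExpr, Benjamini-Hochberg, adjusted p under 0.1), after a check on simulated data. Fits between genotypes within osteoclast-like cells, and of class by genotype, could not be made, because only WT cultures held 5 members. Shares were compared by exact permutation. Intervals are exact Clopper-Pearson 95% intervals (Python 3.11.15, scipy 1.17.1). Named genes were all members of fixed lists as counts with examples, and the 10 largest and 10 smallest fold changes past the threshold with 1 sign in every culture. Alternatives were DESeq2 1.42.0, RLE factors, no low-count filter, other rule thresholds, other cell minimums and denominators, an adjusted p under 0.05, thinning, untagged samples, each culture left out, with or without blocks, and other comparison cells. Some list members are not reported by name here. Bulk RNA-Seq was not analysed here.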

Additional observations from a re-analysis of the deposited data

Results flagged for a closer look

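The share of osteoclast-like cells lay on opposite sides with *Fgf23* deletion in the *Dmp1* backgrounds. With *Dmp1* intact the share in Fgf23cKO differed from WT by -0.791 points, with each Fgf23cKO culture below each WT culture, and without *Dmp1* the share was 0.219 points higher with *Fgf23* deleted, with each Dmp1KO/Fgf23cKO culture above both Dmp1KO cultures. The changes differed by 1.01 percentage points. An exact two-sided permutation of the *Fgf23* labels within each background gave p = 0.00500, not adjusted and the smallest that 200 arrangements give, and p = 0.0300 and 0.0400 without the first and the third Fgf23cKO culture. These arrangements assume no effect of *Fgf23* deletion in either background, so the p is not one for equal changes in both. It ranged from 0.866 to 1.22 with each culture left out. After thinning, at a threshold of 25 per 10,000 and with macrophage-marked cells as the denominator, the WT and Fgf23cKO cultures overlapped. The share in Dmp1KO was near 0 in both cultures, and each genotype was 1 droplet reaction, so an effect of the reaction cannot be told apart from one of the genotype.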

How the results depend on the processing

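The counts of genes that differed between osteoclast-like and other macrophage-marked cells kept within 1.5 times the reported counts under every alternative run. DESeq2 gave 1906 higher and 2092 lower, and a fit without the culture block 2681 and 3097. With 1 culture left out, 1880 to 2156 genes were higher and 2245 to 2568 lower. Of the 198 named genes that passed the test, 33 lost their call under at least 1 alternative and 5 changed sign. At a threshold of 100 per 10,000, *Top2a* (-0.84), *Ccnb1* (-0.11), *Ccna2* (-0.24) and *Mcm6* (-0.10) reversed, and *Timp1* reversed to 0.29 with comparison cells low in stromal genes; the cause was not tested. Sums of at least 20 cells left 1 culture and could not be fitted.

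The difference in share between Dmp1KO/Fgf23cKO and Dmp1KO was 0.252 points with macrophage-marked cells as the denominator, 0.284 at a threshold of 25 per 10,000, 0.180 at 100 and 0.255 with untagged samples. At 100 per 10,000, Dmp1KO differed from WT by -0.831 and Dmp1KO/Fgf23cKO by -0.651. The effect of *Dmp1* deletion was -0.694 with untagged samples. The untagged samples are cells of the same pools and no further cultures, so no p is given with them. The effect was -0.817 without the third Fgf23cKO culture (exact permutation p = 0.0100), and p was 0.0667 without each WT culture in turn, 0.0350 without the filter on cells and 0.0750 at a threshold of 100 per 10,000 (-0.434) or after thinning (-0.553). Fgf23cKO against WT gave -0.840 with macrophage-marked cells as the denominator, -0.683 after thinning and -0.770 at a threshold of 25, each with an exact permutation p of 0.200. When cultures were left out singly, the ranges were -1.0 to -0.647 for Fgf23cKO, -1.46 to -1.11 for Dmp1KO and -1.24 to -0.895 for Dmp1KO/Fgf23cKO against WT, 0.200 to 0.238 for Dmp1KO/Fgf23cKO against Dmp1KO, -0.392 to -0.214 for *Fgf23* deletion and -0.851 to -0.671 for *Dmp1* deletion. Same-numbered cultures did not deviate together (r from -0.341 to 0.331, 4 of 15 pairs over 0.1), so the numbers do not pair them. With the replicate block the share differences were -0.791, -1.11, -1.03 and 0.220, with p of 0.250 or 0.500, the smallest that exact permutation allows.

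The sums over whole cultures called 5709 to 6734, 7724 to 10182, 6948 to 8441 and 6964 to 9980 genes with each culture left out, in the order Fgf23cKO, Dmp1KO and Dmp1KO/Fgf23cKO against WT and Dmp1KO/Fgf23cKO against Dmp1KO, and 6415, 9398, 7571 and 9054 with the replicate block. Of 63 calls of named genes over these 4 comparisons, 30 were lost under at least 1 alternative and 2 changed sign. Without the osteoclast-like cells and in macrophage-marked cells alone, *Nyap2* in Fgf23cKO (0.96) and *Nfatc1* in Dmp1KO/Fgf23cKO (0.24) reversed against WT. The precision is limited by the number of cells, with 56 in the 3 WT cultures and 10 or fewer in every other genotype. These sums, the deeper cells and the cells low in myeloid genes were chosen after seeing the data.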
